A study of Homo sapiens with 6 samples.

Results

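Ribosomes are built in the nucleolus, where RNA polymerase I copies the ribosomal DNA into a long precursor RNA. Small nucleolar ribonucleoproteins (snoRNPs) modify that precursor, and large assemblies of proteins, helicases, GTPases and nucleases cut it and fold it into the small and the large subunit. The genes for these factors are widely expressed, and their RNA levels are known to follow growth signals in many cell types.

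The set described here holds 50 named genes for rRNA synthesis, processing and subunit assembly. They were identified by the gene symbol of their probe sets, using only probe sets with exactly 1 symbol in the platform annotation. With that rule 48 of the 50 had a probe set, out of 18132 genes with such a probe set, and GNL3 and DDX18 were not analysed here. Of the 48, 47 passed the signal filter and were tested. UTP14A did not pass.

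The study compared HMEC-1 cells, an established line of human dermal microvascular endothelium that grows without limit through a viral oncoprotein, after 24 hours in serum-free medium. In 3 samples, labelled EPC, the cells received EPC-Exos at 1e+11 particles per mL, and in the 3 samples labelled PBS they received PBS of the same volume. The labels do not spell the abbreviation out; the study is known to concern exosomes of endothelial progenitor cells. All 6 samples are of 1 cell line, and nothing in the labels says that replicates are separate cultures, so p-values cover only array-to-array spread, possibly of technical origin.

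Each sample was measured on 1 Affymetrix array, which gives a log2 signal for each probe set, so that a difference of 1 is a 2-fold difference. Array medians lay between 6.25 and 6.34. Correlations over all probe sets other than controls were 0.997 within groups and 0.988 to 0.989 between groups. The array measures each gene against the rest of the labelled RNA, so neither rRNA nor the amount of RNA per cell was measured. In a culture measured in bulk, fewer cells with a transcript and less of it per cell cannot be told apart.

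Across the members the result ran almost entirely in a single direction. After EPC-Exos, 45 of the 47 tested genes rose and UBTF fell, while NOP14 missed the threshold (limma, Benjamini-Hochberg adjusted p under 0.05 over all tested genes). Over the whole array 21.7% of 11715 tested genes were called higher and 27.3% lower. The median log2 change of the members was 0.60, with quartiles of 0.44 and 0.82, while the median over all tested genes was -0.011, with quartiles of -0.20 and 0.16. Rises were modest in size, between 1.10-fold and 2.39-fold, and only 3 members rose at least 2-fold. By the rule the submitters state, at least 1.5-fold with an unadjusted p under 0.05, 27 members were higher and 0 lower, where the shares of all tested genes were 3.94% and 5.96%.

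The signals of the EPC-Exos and PBS arrays did not overlap in 46 of the 47 members, 45 of them higher and 1 lower after EPC-Exos. Non-overlap was common on these arrays, with 25.5% of all tested genes wholly higher and 30.2% wholly lower. The members' signals were also somewhat above average, with a median of 9.45 against 8.43 for all tested genes. Among the 3518 tested genes at or above the members' median signal, 31% were called higher and 29.6% lower, and their median change was 0.0065.

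**Figure D1:**
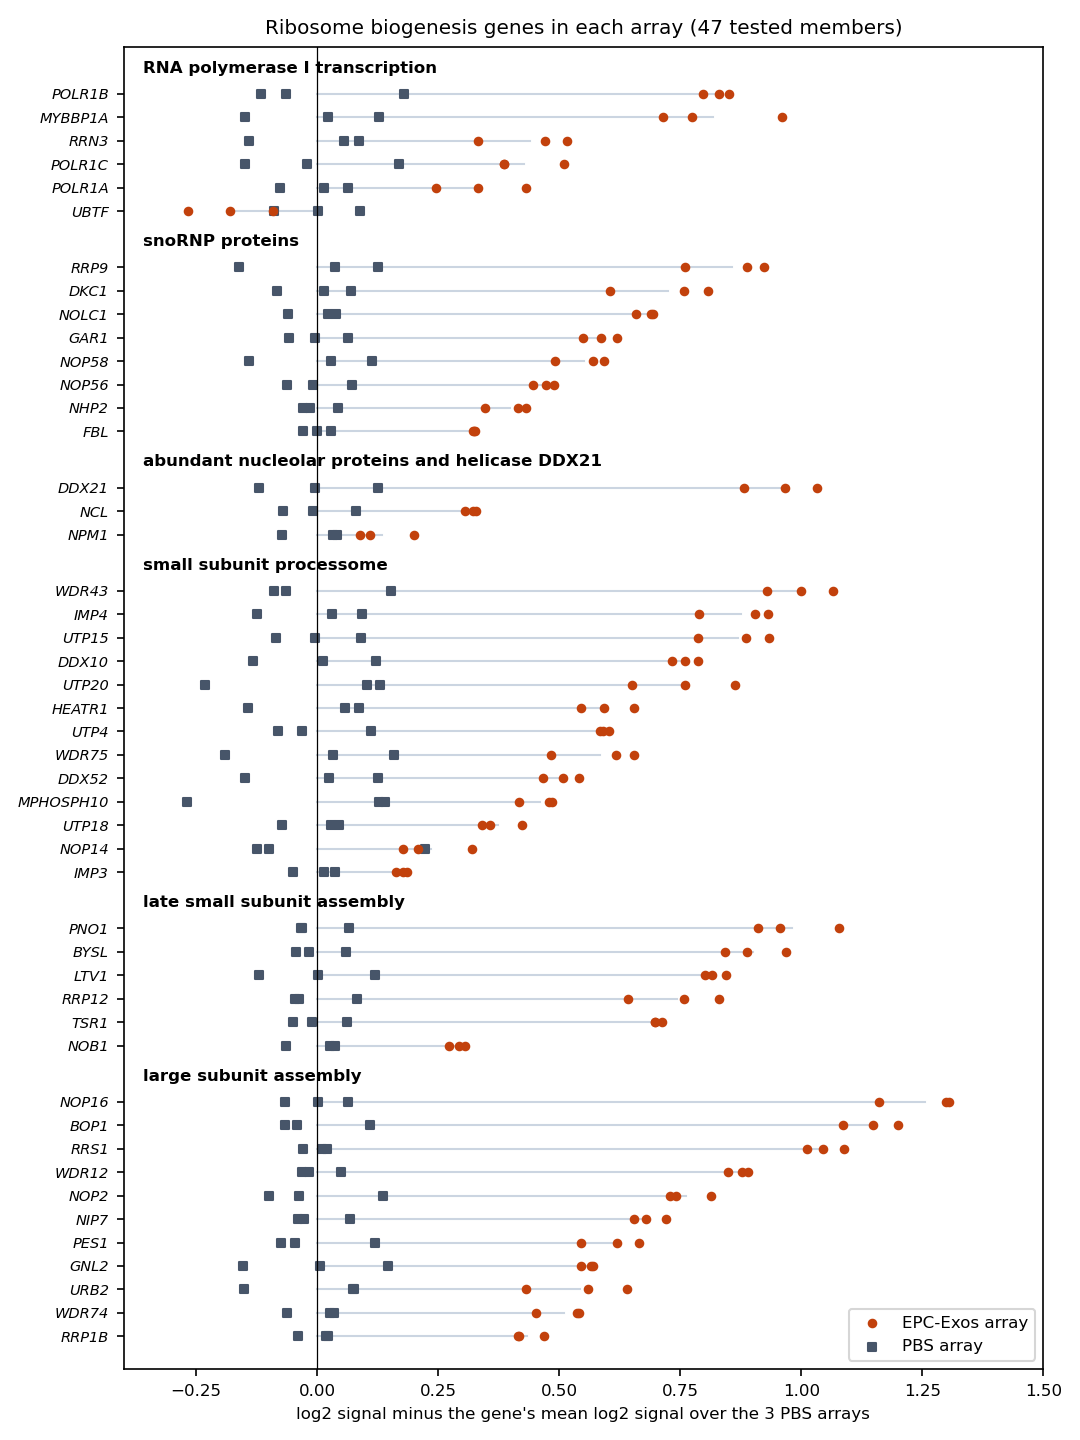
Each row is a tested member, grouped by role and ordered by its change; the horizontal axis gives the log2 signal of each array minus that gene's mean over the 3 PBS arrays. Circles are the EPC-Exos arrays, squares the PBS arrays, and the grey line ends at the EPC-Exos mean. In 45 of 47 rows all circles lie to the right of all squares; UBTF lies to the left and NOP14 overlaps.

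A sequence that the choice of members did not use was more frequent in their start regions than over all promoters, although most of their windows lack it. This is a property of the list of members and would be the same whatever the arrays showed. The E-box CACGTG is the letters bound by MYC with its partner MAX, and by several other factors of the same structural class. It reads the same on both strands and was the only motif searched. RefSeq promoter windows of GRCh38.p14, which run from 250 bases before to 50 after an annotated start, were found for 40 of the 50 members, with 49 windows in all. The letters CACGTG stood in 38.8% of the members' windows, in 7.26% of all 35116 windows of the same length and in 9.3% of the windows of tested genes. For all tested genes called higher the share was 11.2%, and for those called lower 8.65%. Of the 21 occurrences, 18 lay within 50 bases of the start. Windows with a match that close made up 36.7% for the members, 2.82% over all windows and 3.75% for tested genes.

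Stretches of 100 bases, from 50 before to 50 after the start, are shown for the 6 tested members with a match there that rose most, to show where the letters lie. NOP16, which rose most of all, and UBTF, the member that fell, follow as members with no match in their windows. Capitals mark CACGTG, each stretch reads 5′ to 3′ on the strand of its gene, and the coordinates are of GRCh38.p14.
WDR43 (chr2:28894617-28894716, plus strand): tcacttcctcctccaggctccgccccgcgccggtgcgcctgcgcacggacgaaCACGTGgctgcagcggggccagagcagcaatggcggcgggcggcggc
PNO1 (chr2:68157838-68157937, plus strand): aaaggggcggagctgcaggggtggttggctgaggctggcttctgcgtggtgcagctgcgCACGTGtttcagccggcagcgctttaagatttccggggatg
DDX21 (chr10:68956597-68956696, plus strand): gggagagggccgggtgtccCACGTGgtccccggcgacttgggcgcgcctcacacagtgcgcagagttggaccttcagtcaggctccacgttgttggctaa
BYSL (chr6:41921449-41921548, plus strand): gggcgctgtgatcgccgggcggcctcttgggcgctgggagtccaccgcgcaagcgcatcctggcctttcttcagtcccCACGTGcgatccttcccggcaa
IMP4 (chr2:130342847-130342946, plus strand): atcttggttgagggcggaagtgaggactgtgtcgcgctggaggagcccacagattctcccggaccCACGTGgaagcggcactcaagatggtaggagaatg
RRP9 (chr3:51941855-51941954, minus strand): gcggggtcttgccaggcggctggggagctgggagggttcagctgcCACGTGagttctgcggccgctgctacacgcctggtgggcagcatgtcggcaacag
NOP16 (chr5:176388549-176388648, minus strand): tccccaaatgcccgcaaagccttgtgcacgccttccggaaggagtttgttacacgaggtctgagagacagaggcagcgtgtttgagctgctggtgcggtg
UBTF (chr17:44220833-44220932, minus strand): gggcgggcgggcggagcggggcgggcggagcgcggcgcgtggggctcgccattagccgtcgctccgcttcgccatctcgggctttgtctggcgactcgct

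In WDR43, PNO1, BYSL and IMP4 the match begins 4, 10, 29 and 16 bases into the transcript, counting the start as base 1. The DDX21 and RRP9 matches begin 31 and 5 bases before the start. The DDX21, IMP4 and UBTF stretches are each from 1 of 2 annotated starts of the gene. Tested members with a match had a median log2 change of 0.76 over 17 genes, ranging from 0.23 to 1.00. The 21 tested members with windows and no match had a median of 0.51, ranging from -0.18 to 1.25, so the ranges overlap widely. A match describes letters and does not show that any factor was bound.

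Genes of RNA polymerase I and its control rose in 5 of 6 cases, with 1 fall and a median log2 change of 0.43. POLR1B, a core subunit of the polymerase, had log2 signals of 8.95, 8.92 and 8.89 on the EPC-Exos arrays, against 8.27, 7.98 and 8.03 on the PBS arrays. Its lowest EPC-Exos value was above its highest PBS value, and its change was 0.83 ± 0.079 (SE; adjusted p = 2.26e-07 by limma). MYBBP1A, a nucleolar protein that takes part in rRNA gene control and rRNA processing, had 8.24, 7.99 and 8.06 with EPC-Exos, against 7.13, 7.41 and 7.30 with PBS. Those groups did not overlap either, and the change was 0.82 ± 0.090 (adjusted p = 1.27e-06 by limma). RRN3, the initiation factor that ties polymerase I to growth signals, rose by 0.44 ± 0.079. The catalytic subunit POLR1A rose by 0.34 ± 0.069, and POLR1C, a subunit shared with RNA polymerase III, by 0.43 ± 0.079.

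UBTF, the factor UBF that binds along active ribosomal DNA, was the member called lower, although many alternatives lost the call. It had 8.51, 8.68 and 8.60 on the EPC-Exos arrays, against 8.69, 8.78 and 8.86 on the PBS arrays. The highest EPC-Exos value and the lowest PBS value differ in the third decimal, and the change was -0.18 ± 0.072 (adjusted p = 0.0487 by limma). The other 3 UBTF probe sets had changes of 0.11, 0.13 and 0.17, and none of the gene's 4 probe sets passed when every probe set was tested. The call was lost without EPC-Exos replicate 1 (adjusted p = 0.204 by limma) or replicate 3 (0.113), without PBS replicate 2 (0.0800) or replicate 3 (0.171), without the filter (0.0663) and without the variance trend (0.0635). With the mean of its probe sets the change was 0.060.

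The snoRNP genes rose in 8 of 8 cases, with a median log2 change of 0.57. RRP9, the protein specific to the U3 snoRNP that guides early cuts of the precursor, had 8.21, 8.38 and 8.34 with EPC-Exos, against 7.29, 7.49 and 7.58 with PBS. Every EPC-Exos array was above every PBS array, by 0.86 ± 0.086 on average (SE; adjusted p = 3.94e-07 by limma). DKC1, the pseudouridine synthase dyskerin, had 11.16, 11.37 and 11.32 with EPC-Exos, against 10.48, 10.57 and 10.63 with PBS. It also showed no overlap, with a change of 0.72 ± 0.057 (adjusted p = 2.43e-08 by limma). Its partners GAR1 and NHP2 rose by 0.59 ± 0.057 and 0.40 ± 0.039, and the snoRNP chaperone NOLC1 by 0.68 ± 0.045. Among the box C/D proteins, the scaffolds NOP58 and NOP56 rose by 0.55 ± 0.055 and 0.47 ± 0.042. The methyltransferase fibrillarin, FBL, rose least of the 8, by 0.32 ± 0.036.

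DDX21, an RNA helicase that works in both polymerase I transcription and rRNA processing, had 12.25, 12.10 and 12.19 on the EPC-Exos arrays, against 11.35, 11.10 and 11.22 on the PBS arrays. The groups were well apart, with a change of 0.96 ± 0.056 (adjusted p = 5.70e-10 by limma). The abundant nucleolar proteins changed less. NCL, nucleolin, had 13.11, 13.11 and 13.09 with EPC-Exos, against 12.87, 12.72 and 12.78 with PBS, and rose by 0.32 ± 0.036. NPM1, nucleophosmin, had 13.51, 13.62 and 13.53 with EPC-Exos, against 13.46, 13.45 and 13.35 with PBS. By its tested probe set it showed the smallest change among the members called higher, 0.13 ± 0.036 (adjusted p = 0.00516 by limma). That probe set was the lowest of the 6 of NPM1 above the filter, which changed by up to 0.26. NPM1 was not called without the variance trend (adjusted p = 0.106 by limma), and its change ran from 0.096 to 0.21 over the alternatives. NCL and NPM1 both lie near the top of the arrays, whose highest signals ran from 14.33 to 14.52. Over the 47 members, signal and change were weakly related (Pearson r = -0.28, Spearman rho = -0.294 across genes, which share arrays and are not independent).

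**Figure D2:**
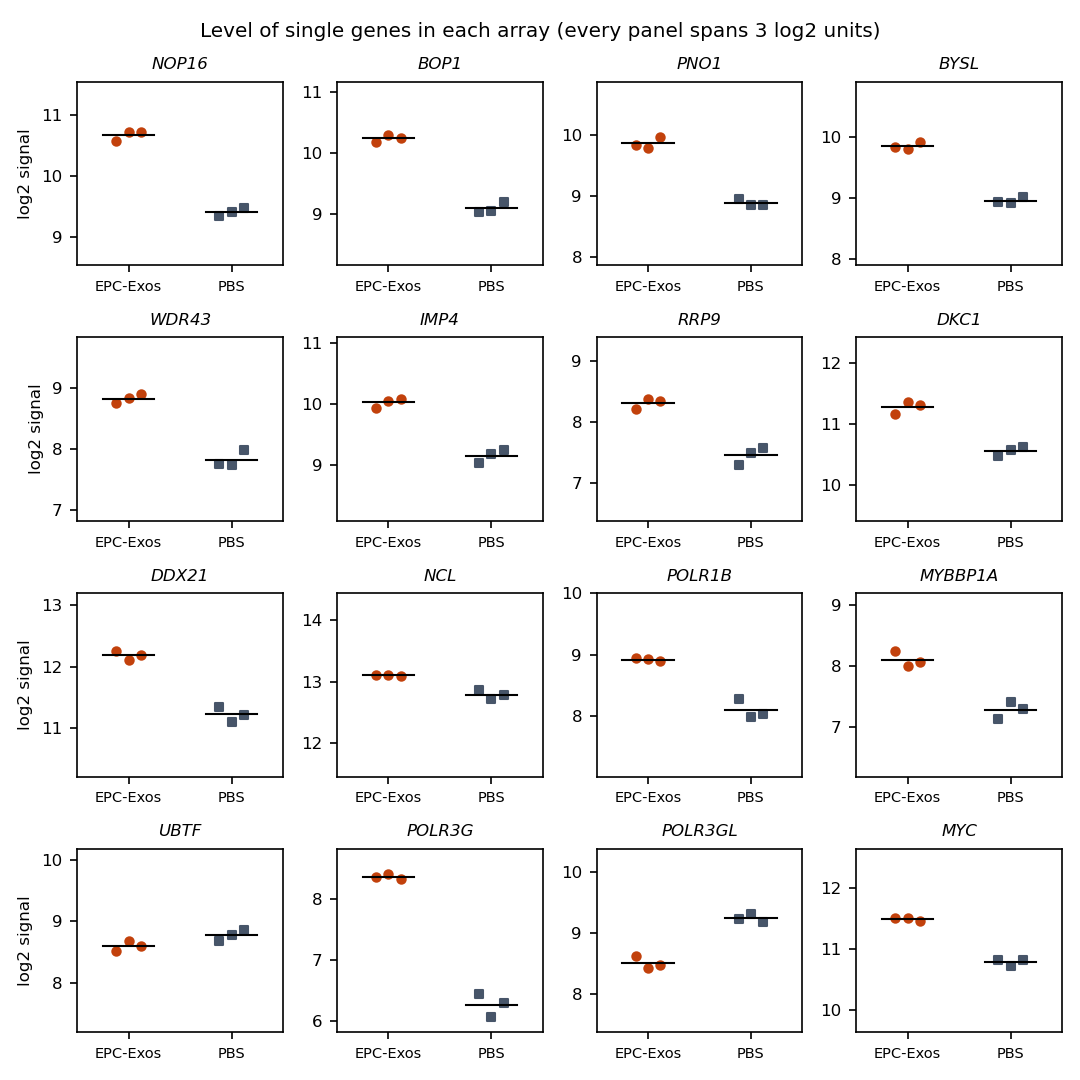
Log2 signal of single genes on each array, EPC-Exos arrays left and PBS arrays right in every panel, with the mean as a line; every panel spans 3 log2 units, and levels of different genes are not comparable. NOP16 and POLR3G show wide gaps between the groups, NCL a narrow one, and UBTF and POLR3GL are lower after EPC-Exos.

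The small subunit processome is the assembly that forms on the 5′ part of the precursor and releases the early small subunit. Of its 13 tested genes 12 rose and 1 missed the threshold; the median log2 change was 0.59. WDR43, a WD-repeat protein of the early processome, had 8.76, 8.83 and 8.89 with EPC-Exos, against 7.76, 7.74 and 7.98 with PBS. No arrays of the groups overlapped, and the change was 1.00 ± 0.079 (SE; adjusted p = 2.35e-08 by limma). IMP4, a U3 snoRNP component, had 9.94, 10.06 and 10.08 with EPC-Exos, against 9.03, 9.18 and 9.24 with PBS. Its change of 0.87 ± 0.067 was about as large as that of UTP15, 0.87 ± 0.076. The partners of IMP4 moved by other amounts, with 0.46 ± 0.085 for MPHOSPH10 and 0.18 ± 0.046 for IMP3, and the intervals of IMP4 and IMP3 lay apart (95% confidence interval 0.73 to 1.02 and 0.077 to 0.27).

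The helicase genes DDX10 and DDX52 rose by 0.76 ± 0.073 and 0.50 ± 0.074. UTP20, HEATR1, UTP4, WDR75 and UTP18, structural proteins of the processome, rose by amounts between 0.37 and 0.76. With the mean of its probe sets the HEATR1 change was 0.27, against 0.60 with its brightest. That mean takes in probe sets below the filter, with mean signals of 4.25 and 3.54, which changed by 0.086 and 0.032. The remaining HEATR1 probe set, with a mean signal of 8.70, changed by 0.38. NOP14 had 7.62, 7.73 and 7.59 with EPC-Exos, against 7.28, 7.31 and 7.63 with PBS, where replicate 3 of PBS lies among the EPC-Exos values. Its change was 0.23 ± 0.095 (adjusted p = 0.0512 by limma), and without PBS replicate 3 it was 0.35 and passed (adjusted p = 0.00434). NOP14 was called higher in 10 of the 20 alternatives. With the mean of its probe sets the change was 0.46 (adjusted p = 0.000101 by limma). UTP14A, below the filter, had 4.49, 4.56 and 4.41 with EPC-Exos, against 4.17, 4.22 and 4.14 with PBS. All of these lie under 4.97, the highest mean of the 17 Tag control probe sets that match no human transcript, so UTP14A was not told apart from background.

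Factors of late small subunit assembly, which act as the particle matures and leaves the nucleus, rose in 6 of 6 cases, with a median log2 change of 0.78. PNO1, the partner of the nuclease NOB1, had 9.84, 9.79 and 9.96 with EPC-Exos, against 8.95, 8.85 and 8.85 with PBS. The groups were separate, with a change of 0.98 ± 0.064 (SE; adjusted p = 2.38e-09 by limma). BYSL, bystin, had 9.84, 9.79 and 9.92 with EPC-Exos, against 8.93, 8.91 and 9.01 with PBS, and rose by 0.90 ± 0.061. The assembly factors LTV1 and TSR1 rose by 0.82 ± 0.069 and 0.70 ± 0.050, and RRP12, which helps the particle out of the nucleus, by 0.74 ± 0.073. The other TSR1 probe set, with a mean signal of 8.85, changed by 0.35. NOB1, which makes the final cut at the 3′ end of the small subunit rRNA, rose by 0.29 ± 0.051. Its 95% confidence interval, 0.18 to 0.40, lay below that of PNO1, 0.85 to 1.12.

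Large subunit factors rose in 11 of 11 cases, with a median log2 change of 0.69. NOP16, whose yeast counterpart is an early large subunit factor, had 10.58, 10.72 and 10.72 with EPC-Exos, against 9.35, 9.42 and 9.48 with PBS. The arrays of the groups were far apart, and the 2.39-fold rise, 1.25 ± 0.059 on the log2 scale, was the largest of the set (adjusted p = 3.95e-11 by limma). BOP1 had 10.18, 10.29 and 10.24 with EPC-Exos, against 9.02, 9.05 and 9.20 with PBS, and rose by 1.15 ± 0.062. BOP1, PES1 and WDR12 form the PeBoW complex, which is needed to process the rRNA of the large subunit. Within it PES1 rose by 0.61 ± 0.067 and WDR12 by 0.87 ± 0.059. RRS1, whose yeast counterpart helps to bring 5S rRNA into the particle, rose 2.07-fold (1.05 ± 0.058).

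The rRNA methyltransferase NOP2 and the processing factor NIP7 rose by 0.76 ± 0.077 and 0.69 ± 0.056. The GTPase GNL2 and the large subunit factors URB2, WDR74 and RRP1B rose by 0.56 ± 0.067, 0.54 ± 0.094, 0.51 ± 0.065 and 0.43 ± 0.045. All 11 had non-overlapping groups. Over the 45 members called higher in all roles, adjusted p-values by limma ran from 3.95e-11 for NOP16 to 0.00516 for NPM1.

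Different probe sets of a gene gave a further reading of the same RNA. Of 117 probe sets of the members, 110 lay above the signal filter, and 34 members had more than 1 of these. In 33 of the 34 all probe sets of the gene changed in the same direction, and UBTF was the exception. The spread between the largest and the smallest change of a gene had a median of 0.12. The widest was in WDR12, where 2 probe sets changed by 0.87 and 0.77 while a dim one, with a mean signal of 5.74, changed by 0.098; their mean gave 0.58. The NOP14 probe sets changed by 0.23, 0.47 and 0.67, so the tested one was the lowest. The suffixes _x_at and _s_at mark designs that may pick up RNA of more than a single gene. Without such probe sets 45 members were tested, of which 44 rose and 1 fell, and their median change was 0.68.

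**Figure D3:**
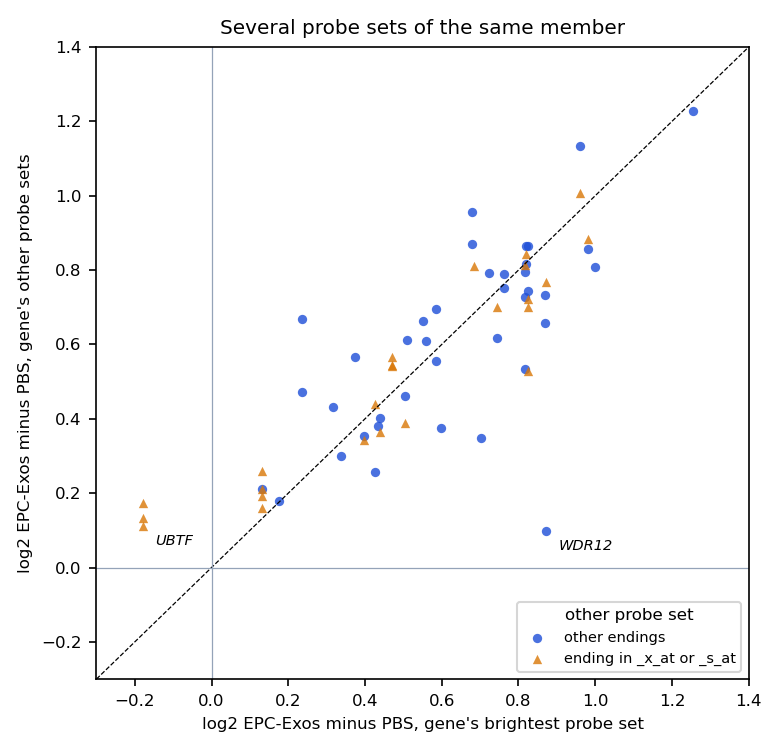
Each point sets the log2 change of another probe set of a member (vertical axis) against that of the member's brightest probe set, which was tested (horizontal axis), for the 34 members with several probe sets above the filter. Points follow the dashed line of equality; the 3 points left of zero are UBTF, and WDR12 has 1 point near zero.

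Other genes of the pathway were taken from lists drawn up by role. Of 82 further assembly factors tested, 68 rose, 3 fell and 11 missed the threshold, and their median log2 change was 0.37. These lists also hold the snoRNP proteins NOP10 and SNU13, which rose by 0.35 ± 0.046 and 0.31 ± 0.048. The largest rises on the small subunit side were in ESF1 (0.94 ± 0.098), WDR3 (0.84 ± 0.058) and NOL6 (0.81 ± 0.094, and 0.47 to 0.89 over the alternatives). On the large subunit side they were in RPF2 (0.99 ± 0.054), RRP15 (0.95 ± 0.091) and PPAN (0.94 ± 0.074); RRP15 changed by 0.11 without _x_at and _s_at probe sets (adjusted p = 0.380 by limma). The 3 that fell were NOP53 (-0.45 ± 0.041), which helps to bring the RNA exosome to the particle, EFL1 (-0.25 ± 0.084), a GTPase of late large subunit maturation, and RIOK3 (-0.16 ± 0.050), an atypical kinase. Without EPC-Exos replicate 1 or 3 the RIOK3 call was lost. It was also lost with the mean of its probe sets, without _x_at and _s_at probe sets and without the variance trend. Centring each array, on its median or on that of its tested genes, lost it too. The EFL1 call was lost without EPC-Exos replicate 2 or PBS replicate 1 or 3, and with centring on the tested genes. Over all alternatives the RIOK3 and EFL1 changes ran from -0.18 to -0.11 and from -0.31 to -0.18. The NOP53 call held under each of the 19 alternatives in which it was tested. E-boxes stood in 29.4% of the promoter windows of these further factors.

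Of 11 other polymerase I factors, 6 rose and 5 did not pass, led by POLR1G (0.78 ± 0.078), TCOF1 (0.65 ± 0.067), the factor treacle, and TAF1A (0.50 ± 0.073). Among 14 genes of the RNA exosome and related nucleases that trim rRNA ends, 9 rose and 5 did not pass, led by the exosome subunits EXOSC4 (0.57 ± 0.081), EXOSC5 (0.53 ± 0.094) and EXOSC2 (0.52 ± 0.060). Of 9 protein genes of RNase MRP and RNase P, 6 rose and 3 did not pass, with RPP25 (0.54 ± 0.094), RPP40 (0.48 ± 0.061) and POP1 (0.40 ± 0.078) changing most. RPP30, counted among those that rose, lost the call in 10 of the 20 alternatives, with changes from -0.0098 to 0.20. In the exosome list EXOSC8 and DIS3 each lost the call in 4 alternatives. None of these 3 lists held a gene called lower.

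RNA polymerase III makes 5S rRNA and tRNAs. Of its 19 tested factors 9 rose, 1 fell and 9 missed the threshold; their median log2 change was 0.17. The alternative subunits POLR3G and POLR3GL, paralogs that occupy the same place in the enzyme, moved in opposite directions. POLR3G had 8.36, 8.41 and 8.32 with EPC-Exos, against 6.45, 6.08 and 6.30 with PBS, a 4.25-fold rise (2.09 ± 0.094, adjusted p = 2.55e-11 by limma). POLR3GL had 8.62, 8.43 and 8.48 with EPC-Exos, against 9.23, 9.31 and 9.18 with PBS, and fell by 0.73 on the log2 scale (SE 0.070, adjusted p = 2.21e-07 by limma). The groups did not overlap in either gene, and both calls held under each alternative in which the gene was tested. POLR3D followed with a change of 0.41 ± 0.10. POLR3A, also called higher, lost the call in 6 of the 20 alternatives.

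Cytosolic ribosomal protein genes, whose products the factors above assemble, did not move with them. Of 64 tested, 2 rose, 18 fell and 44 did not pass. That is 3.12% higher and 28.1% lower, where the shares of all tested genes were 21.7% and 27.3%. The median log2 change was -0.036. That median was 0.018 with each array centred on the median of its tested genes and 0.026 without _x_at and _s_at probe sets, so its sign depends on the processing. Counts of calls ran from 1 to 10 higher and from 0 to 30 lower over the alternatives; without EPC-Exos replicate 3 or PBS replicate 2 alone, 1 was higher and 9 lower. The largest changes were in RPL35A (0.58 ± 0.051, and 0.18 to 0.63 over the alternatives), RPL13 (-0.31 ± 0.040) and RPS27 (-0.20 ± 0.028). Their signals had a median of 13.58, near the top of the arrays. Of 18 other tested genes at or above that signal, 5 were called higher and 3 lower, with changes between -0.11 and 0.22. E-boxes stood in 5.13% of the promoter windows of ribosomal protein genes.

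**Figure D4:**
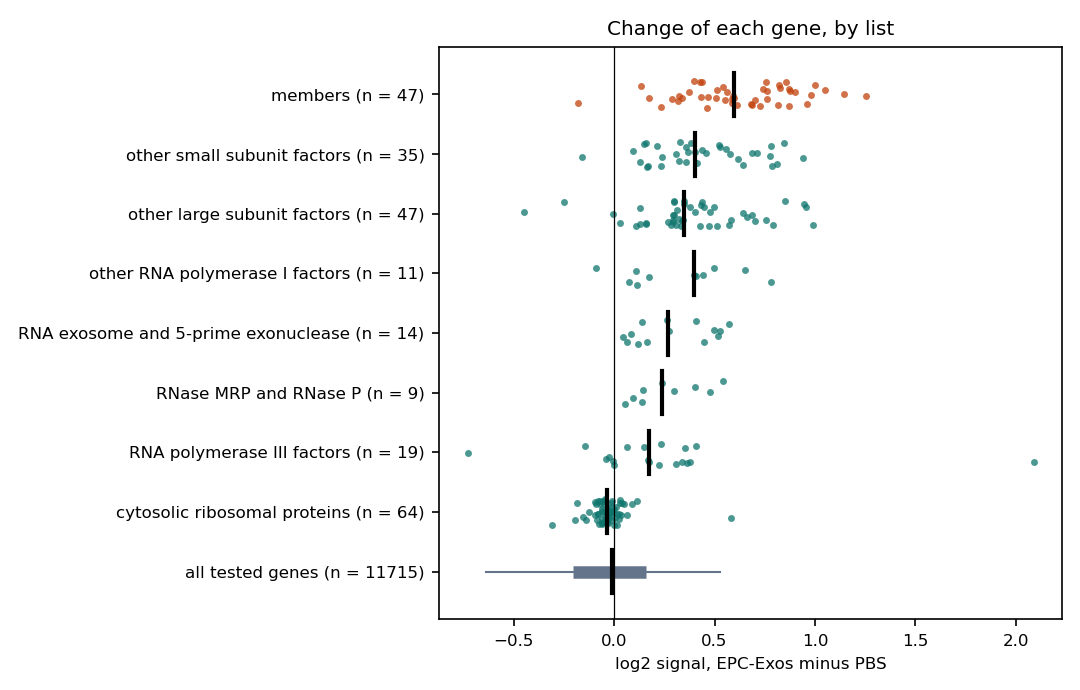
Each point is the log2 change (EPC-Exos minus PBS) of a tested gene, by list, with the list's median as a vertical line; the lowest row gives the median, quartiles (thick bar) and 5th to 95th percentiles (thin line) of all 11715 tested genes. The members have a median of 0.60 and lie right of zero except UBTF, while the ribosomal protein genes have a median of -0.036 and run from -0.31 to 0.58, the highest being RPL35A.

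Host transcripts of snoRNAs were mixed. Of 7 tested, 4 rose, 2 fell and 1 did not pass, with SNHG12 (0.54 ± 0.061) and SNHG1 (0.45 ± 0.065) higher and EPB41L4A-AS1 (-0.37 ± 0.065) lower. The other two called higher, SNHG7 and ZFAS1, both lost the call without EPC-Exos replicate 1. SNHG7 also lost it without EPC-Exos replicate 3 or PBS replicate 1, and ZFAS1 without EPC-Exos replicate 2 or PBS replicate 2 or 3. ZFAS1 lost it as well with quantile or cyclic loess scaling and without the filter, and both genes lost it without the variance trend. Over all alternatives their changes ran from 0.12 to 0.37 and from 0.073 to 0.26. In the MYC and MAX network, MYC, a transcription factor known to raise ribosome biogenesis genes, had 11.50, 11.50 and 11.46 with EPC-Exos, against 10.82, 10.72 and 10.82 with PBS (0.70 ± 0.046, adjusted p = 2.38e-09 by limma). The MAX partners MXD3 and MXD4, which act as repressors at E-boxes, fell by 0.84 and 0.70 on the log2 scale (SE 0.079 and 0.086). The MXD3 change ran from -0.90 to -0.39 over the alternatives. Of 10 tested network genes 3 rose, 5 fell and 2 did not pass. Any part of this network in the members' changes was not tested.

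Some markers of other states were called on the same arrays, and others were not. The endothelial label rested on few markers: ENG and TIE1 rose (0.81 ± 0.065 and 0.48 ± 0.10), KDR, ERG and VWF were tested and not called, and PECAM1, CDH5 and TEK lay below the filter. CDH5 and TEK were under the highest Tag control mean of 4.97 in both groups. Summed linear signals of the 8 endothelial markers were 1465 to 1521 with EPC-Exos and 893 to 1050 with PBS. Such a sum mostly follows its brightest gene. The brightest tested endothelial marker had a mean log2 signal of 9.56, against a median of 6.08 over those tested. For the 5 fibroblast and smooth muscle markers the sums were 307 to 346 with EPC-Exos and 704 to 797 with PBS, and DCN (-2.21 ± 0.094), ACTA2 (-1.85 ± 0.14) and PDGFRB (-1.29 ± 0.12) fell. Over the alternatives in which they were tested, these ran from -2.25 to -1.29, from -2.03 to -1.19 and from -1.42 to -0.55. CNN1 and DES, also on this list, were tested and not called. Their changes ran from -0.10 to -0.013 and from 0.067 to 0.18 over the alternatives. Leukocyte markers summed to 79 to 92 with EPC-Exos and 74 to 82 with PBS, with 3 of 4 under the Tag control level, and epithelial markers to 166 to 176 with EPC-Exos and 152 to 179 with PBS. Among 5 proliferation markers PCNA fell (-0.47 ± 0.035, and -0.73 to -0.42 over the alternatives), MKI67 (0.38 ± 0.079) and CCNB1 (0.11 ± 0.038) rose and TOP2A and CDK1 did not pass. MKI67 was not called with the mean of its probe sets, and its change ran from 0.027 to 0.44 over the alternatives. The CCNB1 call was lost without EPC-Exos replicate 2 or 3 or PBS replicate 2 or 3. It was also lost with cyclic loess scaling and without the variance trend, and the CCNB1 change ran from 0.092 to 0.17 over the alternatives. The summed signals of all 5 were 15339 to 15691 with EPC-Exos and 16510 to 17834 with PBS. The part of any of these in the members' changes was not tested. No batch, culture day or scan date is given, so batch and treatment cannot be told apart.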

How the data were processed

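The authors deposited 1 log2 signal for each of 49395 probe sets on each of 6 arrays. The submitters' processing notes name MAS5 but not what it did, and other steps are not given in the sources used here; the log2 scale was read from the values, 2.47 to 14.52. No further scaling was applied. Gene symbols came from the platform annotation, where 44988 probe sets had 1 symbol, 1832 several, 2473 none, and 102 were controls. For each gene the probe set of highest mean was kept, and tested if that mean reached the 40th percentile of the probe sets other than controls (5.45). Groups, taken from the sample titles, were tested by lmFit and trended eBayes of limma 3.58.1 under R 4.3.3, two-sided, with group as the only term. Changes are EPC-Exos minus PBS, with limma's SE, and n is 3 arrays per group; this number limits the precision. The fit was run on simulated data with independent noise and few changed genes. That setting differs from these arrays, so it gives no error rate for them. Members, lists and alternatives were chosen with earlier results of these data known. Every member could be named, with arrays given for the 2 largest rises and largest fall per role; other lists name up to 3 called genes, and any further gene was named after its values were seen. Replicate numbers did not pair the samples by the rule used (correlation of deviations above 0.1 for every pair).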

Additional observations from a re-analysis of the deposited data

How the results depend on the processing

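The count of members called higher stayed between 35 and 46 over 20 alternatives to scaling, offset, filter, probe set choice, variance model, array weights, pairing and arrays; 1 of them, centring on the tested genes, was chosen after seeing the data. The 35 came from testing against a fold of 1.2, which also gave 0 members lower and, over all genes, 773 higher and 1068 lower; against that fold only larger changes pass, by construction. The members' median change was 0.55 with an offset of 64, 0.68 when _x_at and _s_at probe sets were dropped and 0.65 with centring on tested genes, and ran from 0.58 to 0.65 when single arrays were left out. The call of a member lower (UBTF) was lost, giving 0, without the filter, with the mean of probe sets (where its change was 0.060, adjusted p = 0.469), without the variance trend and with centring on tested genes; it ranged from 0 to 1 with single arrays left out. Over all genes 2545 were higher and 3203 lower, against 3249 and 2670 with centring on tested genes. The median of the ribosomal protein genes reversed, to 0.018 with that centring and 0.026 when _x_at and _s_at probe sets were dropped. The cause of these differences was not tested. With a replicate block, 46 members were higher and 1 lower, and 2724 genes higher and 3394 lower over the array. The deviations of same-numbered arrays correlated at 0.201, 0.185 and 0.077, and every array correlated best with its own number, a hint from the data only. Signals near the Tag control level limit UTP14A, and signals near the top of the arrays limit NCL, NPM1 and the ribosomal protein genes.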
